A study of Saccharomyces cerevisiae with 27 samples.

Results

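The subtelomeric gene families PAU, COS, AAD and YRF1 of the budding yeast Saccharomyces cerevisiae were followed through 5 pairwise comparisons of altered membrane lipids or oxygen supply. The members were the genes of the authors' deposited table whose name is PAU, COS or AAD followed by a number, or YRF1 followed by a hyphen and a number. This rule gave 51 of 6709 genes, of which 24 were PAU, 12 COS, 7 AAD and 8 YRF1.

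The 27 libraries were poly-T selected RNA from strains of the S288C background grown in CSM medium, in 9 groups of 3 that the labels call biological replicates. A strain with the MET3 promoter integrated at OLE1, the gene of the fatty acid desaturase, gave OLE1met0 (no methionine, unrepressed, high lipid unsaturation) and OLE1met250 (low lipid unsaturation). The treatment label of OLE1met250 reads 0 uM methionine (repressed), whereas its title carries 250 and the file header names methionine, so this group is called by its title. The plasmids pCM188-SPT23p90 and pCM188-MGA2p90 carried the processed fragments of SPT23 and MGA2, activators of OLE1, and each was compared without doxycycline (spt23p90, mga2p90) against with doxycycline (spt23p90-dox, mga2p90-dox), which represses the fragment. BY4742, the background strain, gave the aerobic group BY, the group ArgonST after 90 min under argon, and the group ArgonLT, grown in a microfermenter and labelled as long-term hypoxia. Both hypoxia comparisons share the BY libraries, and ArgonLT also differs from BY in the culture vessel, so vessel and hypoxia cannot be told apart. Each fragment comparison also differs in doxycycline, and no group had the drug without a fragment plasmid, so drug and fragment cannot be told apart. Methionine and the state of the MET3 promoter cannot be told apart either.

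The PAU genes encode seripauperins, small serine-poor relatives of cell wall mannoproteins, and are known as genes induced without oxygen and repressed by oxygen and heme. The COS genes encode membrane proteins of endosomes that are known to supply ubiquitin in trans when cargo is sorted into multivesicular bodies. The AAD genes encode putative aryl-alcohol dehydrogenases, and AAD4 and AAD6 have been linked to oxidative stress. YRF1 encodes a helicase within the Y' element, a repeat next to the telomere.

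Every log2 fold change and q value here is from the authors' deposited table, as the first group over the second, with no value per library, no error and no depth. Genes are written as higher, lower, risen or fallen, and as called, only at a q (a p value the authors adjusted for false discovery) under 0.05, and a q of exactly 1 was counted as not tested. A value of exactly 10 or -10 was read as a ratio with 1 group at 0, which has no fold, and an exact 0 as both groups at 0. By this reading BY was at 0 in 725 genes in the ArgonST values and in the same 725 in the ArgonLT values.

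The members differ in how far their sequence can be told from that of their copies. The share of 50-base windows of a gene found once in the R64 genome had a median of 26.5% in PAU, 47.5% in COS, 78.6% in AAD and 0.3% in YRF1. The first 60 coding bases show this for PAU, each read on the coding strand of build R64. PAU1 (chrX:9079-9138, minus strand) and PAU14 (chrIX:9096-9155, minus) are identical over their whole length and have no unique window. PAU8 (chrI:2110-2169, minus) has 48.1% unique windows, PAU5 (chrVI:99540-99599, minus) 75.3% and PAU17 (chrXII:94747-94806, plus) 91.4%. Capitals mark the bases that differ from PAU1, of which PAU8 has 2, PAU5 has 8 and PAU17 has 11.
PAU1: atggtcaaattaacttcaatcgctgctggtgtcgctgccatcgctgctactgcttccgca
PAU14: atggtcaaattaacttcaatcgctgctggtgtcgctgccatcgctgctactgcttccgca
PAU8: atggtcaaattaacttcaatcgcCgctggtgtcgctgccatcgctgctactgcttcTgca
PAU5: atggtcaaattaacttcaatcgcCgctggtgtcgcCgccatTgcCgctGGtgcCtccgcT
PAU17: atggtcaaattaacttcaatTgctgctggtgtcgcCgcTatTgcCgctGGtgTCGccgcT

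The COS starts are as close. COS3 (chrXIII:7244-7303, plus strand) and COS2 (chrII:811420-811479, minus) are identical throughout. COS1 (chrXIV:8330-8389, plus) shares these first 60 bases but has 28.9% unique windows over the whole gene, and COS7 (chrIV:1802-1861, plus) differs at 6 of them and has 33.4%. Capitals mark the differences from COS3.
COS3: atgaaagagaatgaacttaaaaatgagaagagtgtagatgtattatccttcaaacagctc
COS2: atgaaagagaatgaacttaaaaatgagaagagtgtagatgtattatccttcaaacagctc
COS1: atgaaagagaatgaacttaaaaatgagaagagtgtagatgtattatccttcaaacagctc
COS7: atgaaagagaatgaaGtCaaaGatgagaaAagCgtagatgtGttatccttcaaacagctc

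Whether a member was tested followed this share. Of the 17 members with under 10% unique windows none was tested in any comparison, and 14 of them were listed at 0 throughout the authors' deposited table. Of the 15 members with 10 to 50%, 4 were never tested, of the 9 with 50 to 90% 1 was never tested, and of the 9 with 90% or more all were tested at least once. Genes outside the families showed the same order, with 79.7% of 158, 32.6% of 86, 10.3% of 117 and 2.5% of 5592 genes never tested in those 4 ranges. AAD16, which RefSeq does not hold by name, is left out of this count and had 56.1%. The handling of reads with several matches was not stated in the sources used here, and the part of shared sequence in the zeros was not tested.

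**Figure D1:**
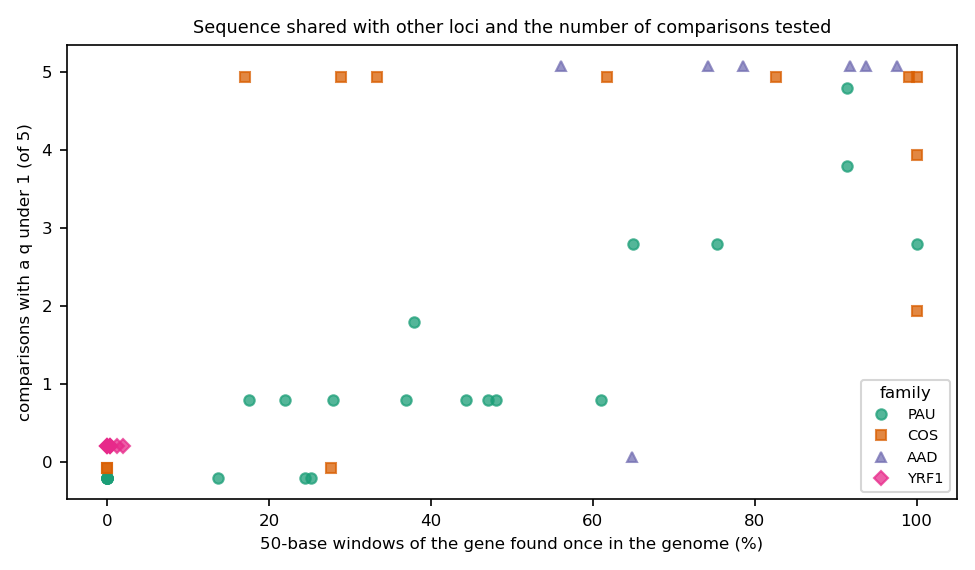
Each point is a member, placed by the share of its 50-base windows found once in the genome (horizontal axis, percent) and by the number of the 5 comparisons in which its q was under 1 (vertical axis, with the families shifted slightly apart). The 8 YRF1 genes lie at 2.0% or less and at no tested comparison, and 6 of 7 AAD genes lie at 56.1% or more and at 5.

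The never-tested members were PAU1, PAU6, PAU9, PAU10, PAU14, PAU15, PAU16, PAU18, PAU21, PAU22, COS2, COS3, COS4, AAD15 and all 8 YRF1 genes, 22 of 51. Tests in all 5 comparisons existed for 14 members, namely PAU23, COS1, COS5, COS6, COS7, COS8, COS9, COS10, AAD3, AAD4, AAD6, AAD10, AAD14 and AAD16. At least 1 call was made for 26 members, 12 of PAU, 8 of COS and 6 of AAD.

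**Figure D2:**
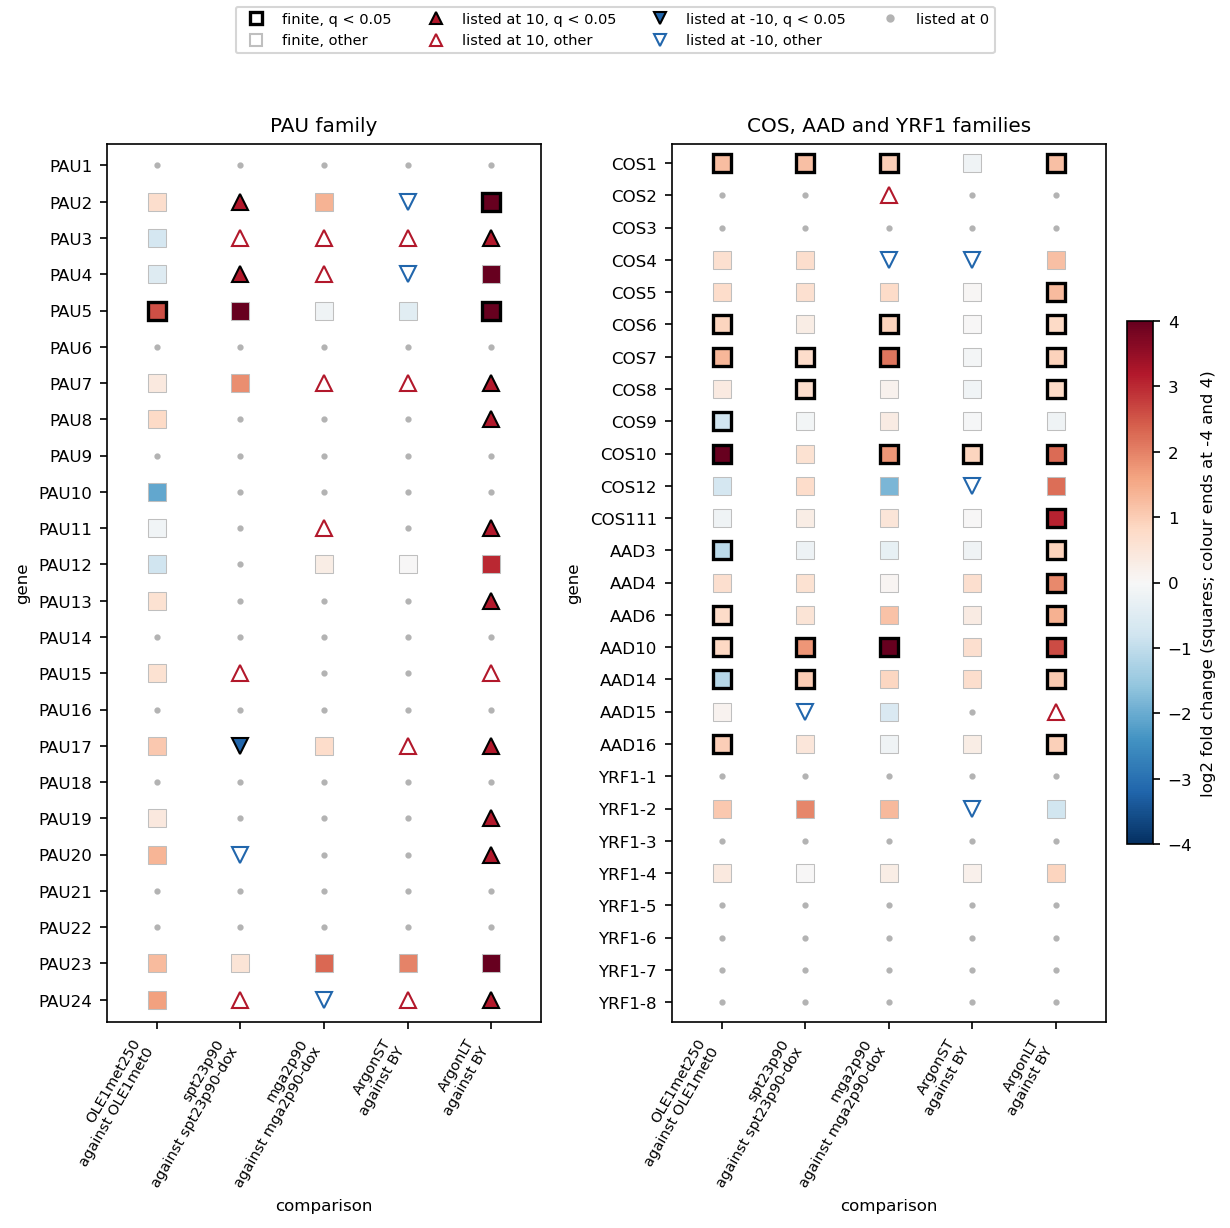
Each row is a member and each column a comparison. Squares are finite log2 fold changes on the colour scale, with a black frame where q was under 0.05, triangles are values listed at 10 or -10, filled where q was under 0.05, and small grey dots are values listed at 0. In the ArgonLT column 11 PAU, 7 COS and 6 AAD genes were called higher and none lower.

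In all of the series, OLE1 had a log2 of -0.03 (q 0.925) in OLE1met250, so the target does not check that label. SPT23 rose by 2.55 and MGA2 by 3.73 with their own fragments in the authors' deposited table. MGA2 also rose by 4.33 in OLE1met250, more than with its own fragment, and by 2.23 in ArgonLT, and fell by 1.46 with the SPT23 fragment. The lowest q, 0.000304, was shared by 43 to 1136 genes per comparison and ranks nothing. The median log2 of all tested genes lay between -0.04 and 0.09.

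Most PAU genes called in long-term hypoxia had no signal in BY. Of the 14 PAU genes tested in ArgonLT against BY, 11 rose and 0 fell, where 42.5% of all 5702 tested genes were called, 24.1% higher and 18.4% lower. BY was at 0 for 9 of these 11, so they could be tested only by being present in ArgonLT, and the count of 11 is no support for a direction of the family. The 9 listed at 10 with a q under 0.05 were PAU3, PAU7, PAU8, PAU11, PAU13, PAU17, PAU19, PAU20 and PAU24, with q between 0.000304 and 0.000574. They made up 9 of the 32 genes of the whole table that were listed at 10 and called in this comparison.

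PAU2 and PAU5, both outside the last 30 kb of their chromosomes, had finite values and rose. In the authors' deposited table PAU5 (YFL020C, chrVI:99231-99599, minus strand) had a log2 of 9.44 (q 0.00651) and PAU2 (YEL049W, chrV:63728-64090, plus) of 9.59 (q 0.0371). PAU23, also known as DAN2, had 9.30 at a q of 0.164, PAU4 had 5.28 at the same q and PAU12 had 3.00 at a q of 0.283. The 5 finite values were all positive, with a median of 9.30 against 0.09 over all tested genes, but only 2 passed the test. PAU2, PAU4, PAU5 and PAU12 had no test in ArgonST against the same BY libraries. They may thus have been tested here only through their ArgonLT level, so the shared sign and the median are no support for a direction of the family. PAU15 was listed at 10 with a q of 1, and PAU10 and the 8 genes at 0 throughout had no value. The loci of PAU12 and PAU24 in the table are wider than these genes and take in YGR293C and YBR300C, so their values can hold reads of those genes.

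After 90 min of argon the PAU values were few. In ArgonST against BY, PAU23 alone was tested in the authors' deposited table, with a log2 of 1.97 (q 0.268). PAU3, PAU7, PAU17 and PAU24 were listed at 10 and PAU2 and PAU4 at -10, all with a q of 1, and 15 were listed at 0. PAU5 had -0.45 and PAU12 0.02, both untested. The long exposure used the same BY libraries. From short to long, PAU5 went from -0.45 to 9.44, PAU12 from 0.02 to 3.00 and PAU23 from 1.97 to 9.30. These differences of 9.89, 2.98 and 7.32 on the log2 scale were not tested. PAU12 and PAU23 were called in neither exposure, and the BY level under these ratios is not known and may be close to 0.

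Across the lipid comparisons the PAU calls fell on few genes. In OLE1met250 against OLE1met0, PAU5 rose by 2.59 (6.04-fold, q 0.000304) and was the 1 called of 5 tested, where 31.2% of all tested genes were called, 16.7% higher and 14.5% lower. The other 4 tested had positive values that did not pass, namely PAU23 at 1.25 (q 0.112), PAU17 at 1.07 (q 0.137), PAU2 at 0.71 (q 0.373) and PAU7 at 0.40 (q 0.754). This was the comparison with the most finite PAU values, 16 of 24, of which 11 had a q of 1. Of these 11, PAU3, PAU4, PAU10, PAU11 and PAU12 were negative, down to -2.08 in PAU10. PAU8, PAU13, PAU15, PAU19, PAU20 and PAU24 were positive, up to 1.63 in PAU24. The median was 1.07 over the tested values and 0.61 over all finite ones.

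With the SPT23 fragment, PAU2 and PAU4 were listed at 10 (both q 0.000304) and PAU17 at -10 (q 0.00175) in the authors' deposited table. PAU2 and PAU4 were thus at 0 with doxycycline and PAU17 at 0 without it. They were the 3 called of 6 tested, in a comparison where 12.4% of tested genes were called, 6.86% higher and 5.49% lower. Each of the 3 could be tested only by being present in 1 of the groups, so this count is no support for a direction of the family. PAU5 had 4.70 (q 0.0678), PAU7 1.85 (q 0.370) and PAU23 0.55 (q 0.416). PAU3, PAU15 and PAU24 were listed at 10 and PAU20 at -10 with a q of 1.

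With the MGA2 fragment no PAU gene was called of the 2 tested, PAU23 at 2.30 (q 0.115) and PAU17 at 0.74 (q 0.501), where 20.8% of tested genes were called, 12.2% higher and 8.58% lower. PAU3, PAU4, PAU7 and PAU11 were listed at 10 and PAU24 at -10, all with a q of 1. PAU2 had 1.38, PAU5 -0.16 and PAU12 0.29, also with a q of 1.

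The promoters of most PAU genes hold the letters TCGTTTA, a form of the sterol-response element that the regulator Upc2 is known to bind. Searched on both strands from 250 bases before to 50 bases after the start codon, with promoters read from RefSeq R64, TCGTTTA stood in 16 of 24 PAU promoters and in 0 of 12 COS, 0 of 6 AAD and 0 of 8 YRF1 promoters, against 5.48% of 6001 promoters. In 12 PAU genes its first base lay at -134 or -135 from the start codon. The windows below run from -150 to -101 for PAU8 (chrI:2270-2319, minus strand), PAU11 (chrVII:6753-6802, minus), PAU20 (chrXV:12012-12061, minus) and PAU19 (chrXIII:922491-922540, plus), all of them listed at 10 and called in ArgonLT. PAU17 (chrXII:94497-94546, plus), called there too, holds it on the other strand between -250 and -201. Capitals mark the match.
PAU8: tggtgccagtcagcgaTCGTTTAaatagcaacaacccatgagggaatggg
PAU11: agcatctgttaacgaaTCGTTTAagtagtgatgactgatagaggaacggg
PAU20: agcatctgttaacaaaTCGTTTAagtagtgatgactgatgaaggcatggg
PAU19: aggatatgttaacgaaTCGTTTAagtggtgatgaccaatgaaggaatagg
PAU17: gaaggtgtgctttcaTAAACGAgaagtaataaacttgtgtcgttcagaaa

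The windows of PAU11, PAU20 and PAU19 are also close to each other outside the motif, so these matches are not separate observations. PAU genes with the match and without it were among those that rose. Within 30 kb of a chromosome end, 6 of the 15 genes with TCGTTTA rose in ArgonLT and 7 were listed at 0, and of the 4 without it 1 rose and 2 were listed at 0. Farther inside, PAU17 has the match and rose, and 3 of the 4 without it rose. PAU5, the PAU gene called in OLE1met250 and in ArgonLT, holds neither TCGTTTA nor TCGTATA in its window, and PAU2 holds TCGTATA, which 4.15% of all promoters hold. The letters ATTGTTCTC, the longer Rox1-type motif, were in 0 member promoters and 0.717% of all, and the low-oxygen type letters ACTCAACAA in 0 member promoters and 0.167% of all.

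Most COS genes tested in long-term hypoxia rose, from levels above 0 in BY. In ArgonLT against BY, 7 of 8 tested COS genes rose and 0 fell, beside the 24.1% of all tested genes called higher. The median log2 of the 8 was 1.06, against 0.09 over all tested genes. It includes COS111, which is set apart below, and without COS111 the calls numbered 6. COS111 rose most, by 3.08 (8.48-fold, q 0.000304), followed by COS10 at 2.26 (4.78-fold, q 0.000304), in the authors' deposited table. COS5 rose by 1.28, COS1 by 1.19, COS7 by 0.93, and COS6 and COS8 by 0.80 each. COS9 had -0.16 (q 0.637), and COS12 2.24 and COS4 1.19, both with a q of 1.

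COS111 stands apart from the others of its name. RefSeq describes it as unrelated to the subtelomeric COS family, its product is needed for resistance to the antifungal ciclopirox olamine, and it lies 181 kb from its chromosome end (YBR203W, chrII:629168-631942, plus strand). In ArgonST it had a log2 of 0.01 with a q of 1, and in the other comparisons -0.18, 0.29 and 0.53, none called. Its neighbours in ArgonLT were MCM7, a subunit of the replicative helicase, at -0.21 (q 0.477) and LDH1, a lipid hydrolase, which rose by 1.07 (q 0.00599).

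Short argon moved 1 COS gene. In ArgonST against BY, COS10 rose by 0.90 (q 0.0108), the 1 called of 7 tested, where 7.27% of all tested genes were called, 4.86% higher and 2.41% lower. The other 6 lay between -0.18 and 0.05, and COS4 and COS12 were listed at -10 with a q of 1. Over the same BY libraries, the log2 of COS1 was -0.18 in ArgonST and 1.19 in ArgonLT, that of COS7 -0.08 and 0.93, and that of COS8 -0.15 and 0.80. These differences between exposures were not tested.

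COS10 (YNR075W, chrXIV:779916-781040, plus strand) gave the largest COS value of the table. In OLE1met250 against OLE1met0 it rose by 4.66 on the log2 scale (25.2-fold, q 0.000304). All of its 50-base windows are unique, and its closest relative COS6 is 64.8% identical, so no close copy shares its reads. In the same comparison the gene before it, AIF1, a gene of cell death, fell by 0.87 (q 0.00563), and the gene after it, YNR075C-A, had 7.07 (q 0.13) and was listed at 0 in the other 4 comparisons. COS10 and COS12 were the COS genes without the letters ATTGTT, a short Rox1-type motif that 10 of 12 COS promoters and 35.2% of all promoters hold. The match in COS1 (chrXIV:8150-8199, plus strand) and COS7 (chrIV:1622-1671, plus) lies between -180 and -131 in near-identical surroundings, with the match in capitals.
COS1: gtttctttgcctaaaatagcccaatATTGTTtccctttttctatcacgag
COS7: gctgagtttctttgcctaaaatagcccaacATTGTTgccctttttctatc

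Of the 8 COS genes tested in OLE1met250, 4 rose and 1 fell in the authors' deposited table, beside 16.7% higher and 14.5% lower over all tested genes. Beside COS10 these were COS7 at 1.34 (q 0.00239), COS1 at 1.22 (q 0.000304) and COS6 at 0.89 (q 0.000574), and COS9 fell by 0.81 (q 0.0172). COS5 had 0.72 (q 0.146), COS8 0.36 (q 0.221) and COS111 -0.18 (q 0.550).

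Both fragment comparisons gave COS rises and no fall in the authors' deposited table. With the SPT23 fragment 3 of 9 tested COS genes rose, COS1 by 1.20 (q 0.000304), COS7 by 0.74 (q 0.035) and COS8 by 0.69 (q 0.00634), with a median of 0.65 over the 9, beside 6.86% of all tested genes called higher. COS12 had 0.74 (q 0.177), COS5 0.65 (q 0.147) and COS10 0.62 (q 0.055). With the MGA2 fragment 4 of 9 rose, COS7 by 2.15 (4.43-fold), COS10 by 1.77 (3.41-fold), COS1 by 0.99 and COS6 by 0.91, with a median of 0.77, beside 12.2% of all tested genes. COS12 had -1.84 (q 0.0568), and COS2, at 0 elsewhere, was listed at 10 with a q of 1 while COS4 was listed at -10. The log2 of COS7 was thus 1.41 higher and that of COS10 1.15 higher with the MGA2 than with the SPT23 fragment. The same difference was -2.58 for COS12, -0.52 for COS8 and -0.21 for COS1. For COS5, COS6, COS9 and COS111 it was positive and at most 0.60. None of these differences was tested.

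Reads of COS1, COS5 and COS7 are the least separable of the tested COS genes, with 28.9%, 17.0% and 33.4% unique windows. COS6, COS8, COS9, COS10, COS12 and COS111 have 61.7% or more. Among the latter, 3 of 5 tested were called in OLE1met250, 1 of 6 with SPT23, 2 of 6 with MGA2, 1 of 4 in ArgonST and 4 of 5 in ArgonLT. The shares called over all tested genes were 31.2%, 12.4%, 20.8%, 7.27% and 42.5% in that order.

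**Figure D3:**
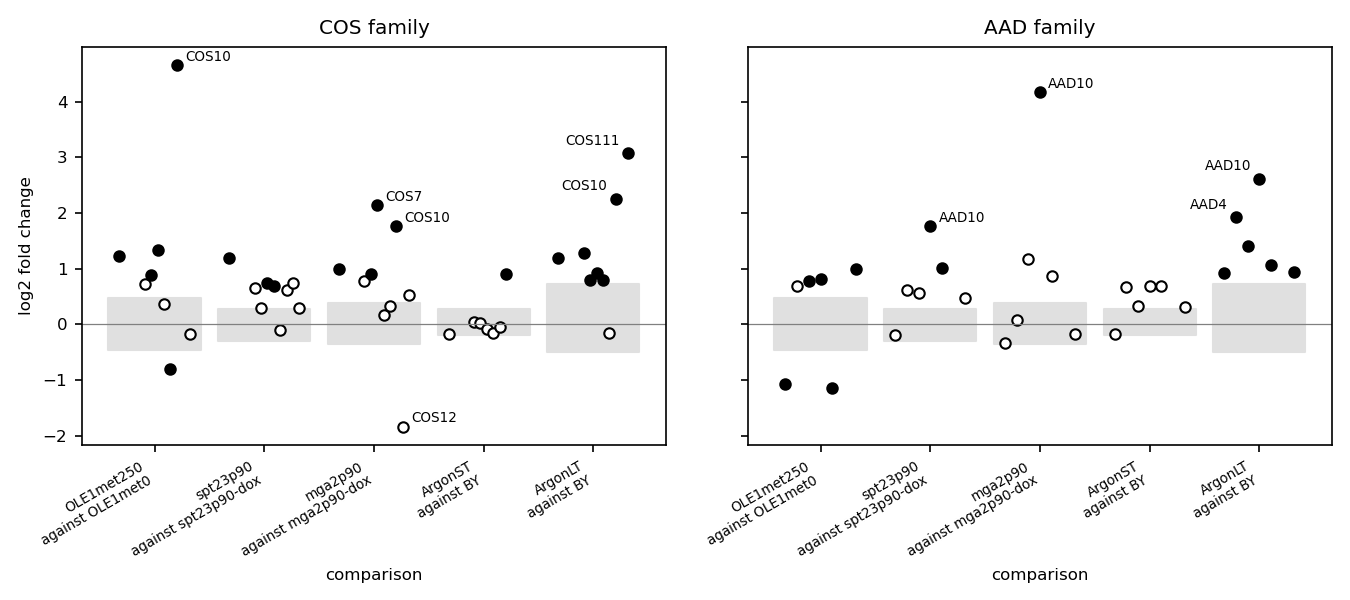
Log2 fold changes of the tested COS (left) and AAD (right) genes with finite values, in each comparison. Filled points had a q under 0.05 and open points did not, gray boxes span the middle 50% of all tested genes, and points are spread sideways by gene. COS10 at 4.66 in OLE1met250 and AAD10 at 4.17 with the MGA2 fragment are the highest points, and in ArgonLT the AAD points lie between 0.92 and 2.62.

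AAD genes rose in long-term hypoxia. In ArgonLT against BY, 6 of 6 tested AAD genes rose, where 24.1% of all tested genes were called higher, with a median of 1.24 and a range from 0.92 to 2.62 in the authors' deposited table. AAD10 rose by 2.62 (6.15-fold, q 0.000304), AAD4 by 1.93 (3.81-fold, q 0.00239), AAD6 by 1.41, AAD14 by 1.06, AAD16 by 0.94 (q 0.0467) and AAD3 by 0.92 (q 0.0198). At a q under 0.01 the calls numbered 3, and AAD6 and AAD16 are annotated as parts of 1 pseudogene, so the 6 are not separate loci. In ArgonST none of the 6 was called, at values between -0.17 and 0.69. AAD15, a short relative of AAD3, was listed at 10 in ArgonLT with a q of 1 and was tested nowhere.

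In OLE1met250, 3 of 6 tested AAD genes rose and 2 fell in the authors' deposited table, beside 16.7% higher and 14.5% lower over all tested genes. At a q under 0.01 the calls numbered 3. AAD16 rose by 0.99 (q 0.0218), AAD10 by 0.82 (q 0.00218) and AAD6 by 0.77 (q 0.0272), whereas AAD14 fell by 1.15 (q 0.0013) and AAD3 by 1.08 (q 0.00686). AAD4 had 0.68 (q 0.105). AAD3 lies at the right end of chromosome III (YCR107W, chrIII:313890-314981, plus strand), and the gene before it, RDS1, a zinc cluster regulator, had -1.08 here too (q 0.000304) and 1.22 in ArgonLT (q 0.000304). AAD14 (YNL331C, chrXIV:16118-17248, minus strand) lies beside RPD3, a histone deacetylase gene, at -0.29 (q 0.31) and 0.14 (q 0.667) in these comparisons.

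AAD10 (YJR155W, chrX:727405-728271, plus strand) was the AAD gene that rose with both fragments. With the MGA2 fragment its log2 was 4.17 (18.0-fold, q 0.000304), and it was the 1 called of 6 tested, a share near the 20.8% called over all tested genes. With the SPT23 fragment it rose by 1.76 (3.38-fold, q 0.000304), and AAD14 by 1.02 (q 0.046), 2 of 6 tested beside 12.4% over all tested genes. AAD6 had 1.18 (q 0.0543) and AAD14 0.86 (q 0.0728) with the MGA2 fragment, and AAD4, AAD3 and AAD16 lay between -0.34 and 0.08.

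The gene before AAD10, YJR154W (chrX:725784-726824, plus strand, 580 bases between them), had nearly the same values. Per the authors' deposited table YJR154W had a log2 of 0.87 in OLE1met250, 1.69 with SPT23, 3.64 with MGA2, 0.63 in ArgonST and 2.16 in ArgonLT, all called but that of ArgonST. AAD10 minus YJR154W was -0.04, 0.07, 0.53, 0.05 and 0.46 in that order. All 50-base windows of YJR154W and 97.6% of those of AAD10 are unique. Whether reads ran through from one gene to the other was not tested.

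**Figure D4:**
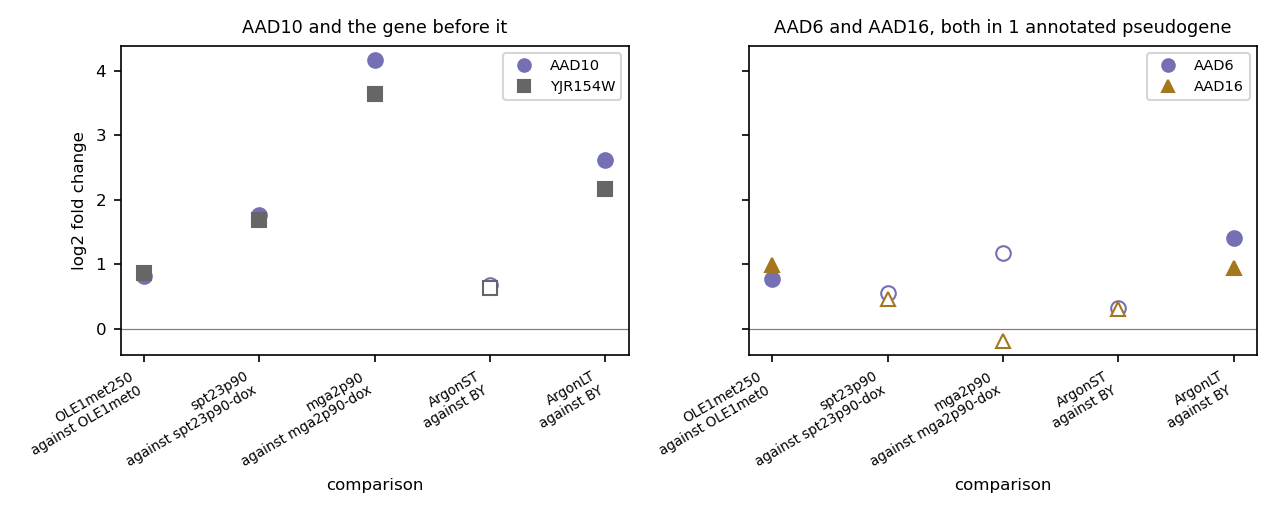
Log2 fold changes of AAD10 with YJR154W (left), and of AAD6 with AAD16 (right), in the 5 comparisons. Filled symbols had a q under 0.05. AAD10 and YJR154W lie within 0.53 of each other throughout, and AAD6 and AAD16 lie farthest apart with the MGA2 fragment, at 1.18 and -0.18.

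The bases before AAD10 are themselves AAD-like. Of the 250 bases before its start codon (chrX:727155-727404, plus strand), 247 align to coding bases 18 to 264 of AAD14 with 79.4% identity, so the annotated gene begins inside a longer AAD-like sequence. Before AAD4, 133 bases align to coding bases 6 to 138 of AAD14 with 96.2% identity. For AAD10 and AAD4 the windows searched for motifs were thus largely or partly AAD-like sequence and may miss their promoters. The whole 580 bases between YJR154W and AAD10 held none of the motifs searched. The bases before AAD10 are shown because this window stands where a promoter would be searched.
AAD10: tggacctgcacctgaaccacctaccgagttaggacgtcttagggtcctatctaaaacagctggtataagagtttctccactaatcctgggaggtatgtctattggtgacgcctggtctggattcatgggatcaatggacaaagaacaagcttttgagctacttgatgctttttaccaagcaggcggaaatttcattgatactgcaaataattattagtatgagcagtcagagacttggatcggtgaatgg

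AAD6 and AAD16 (chrVI:14793-15431 and chrVI:14305-14763, minus strand) lie end to end, and RefSeq joins them in 1 pseudogene. The letters TTACTAA, a site type of the oxidative stress regulator Yap1, occur in 7.45% of all promoters and, of the 6 AAD windows searched, in that of AAD6, with AAD16 not searched. No PAU, COS or YRF1 promoter held them. The window from -250 to -201 of AAD6 (chrVI:15632-15681, minus strand) holds them once on each strand, in capitals.
AAD6: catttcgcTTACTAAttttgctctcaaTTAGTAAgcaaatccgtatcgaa

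The YRF1 family gave no test. The 8 genes lie between 0.222 and 6.94 kb from a chromosome end, are 99.3% to 100% identical in pairs and have at most 2.0% unique windows. YRF1-1, YRF1-3, YRF1-5, YRF1-6, YRF1-7 and YRF1-8 were listed at 0 in all 5 comparisons of the authors' deposited table. YRF1-4 had finite values between 0.03 and 0.88, and YRF1-2 had 1.09, 1.95, 1.30 and -0.77 and was listed at -10 in ArgonST, all with a q of 1. The table's loci of these 2 genes span further open reading frames, so even these values may not be those of YRF1.

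Genes outside the families that lie as near to the chromosome ends were set beside the members. Within 30 kb of an end there were 446 such genes, and the same stretch holds 19 of 24 PAU, 11 of 12 COS, 7 of 7 AAD and 8 of 8 YRF1 genes. In ArgonLT, 45.0% of the 222 tested among the 446 were called higher and 10.4% lower, against 24.1% and 18.4% over all tested genes. Called higher with the MGA2 fragment were 25.4% of 224, and with the SPT23 fragment 16.7% of 222, against 12.2% and 6.86%. In OLE1met250 the shares were 19.0% higher and 14.5% lower of 269, and in ArgonST 6.49% higher and 3.24% lower of 185. The family counts in ArgonLT and with the fragments thus stand beside a raised share of higher calls among their neighbours, and the part of position in them was not tested. Fewer of the 446 were tested in ArgonST than in ArgonLT against the same BY libraries. Some may thus have been tested only through their ArgonLT level, which can raise the share called higher.

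**Figure D5:**
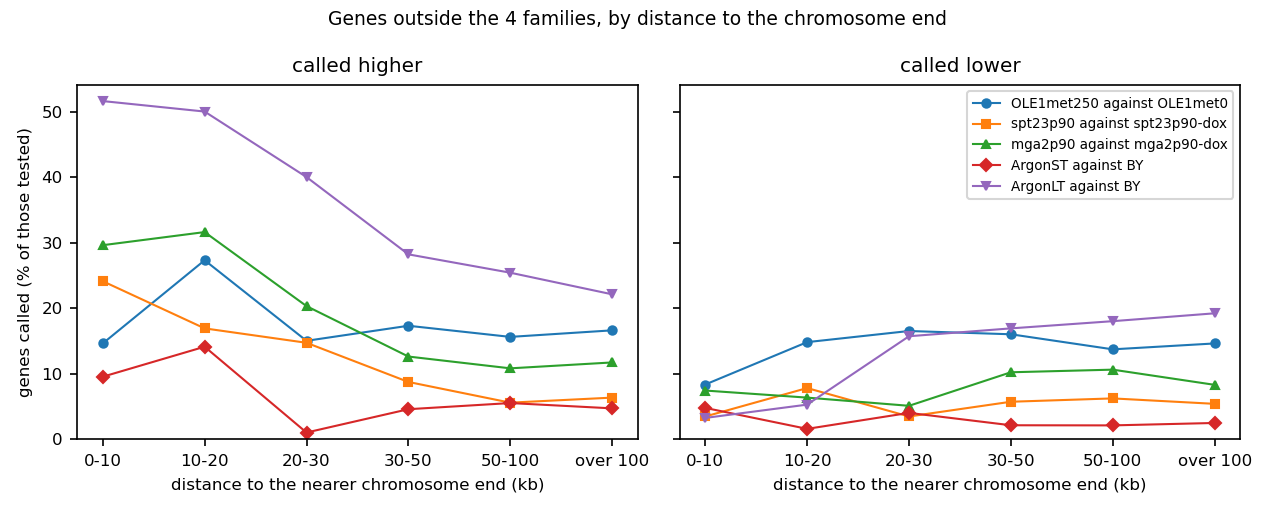
Share of tested genes outside the families that were called higher (left) or lower (right), in percent, by distance to the nearer chromosome end in kb. In ArgonLT 51.6% of the 31 tested genes in the last 10 kb were called higher and 22.1% of those beyond 100 kb, and 3.23% and 19.2% were called lower.

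The share tested was itself low at the ends. Of 154 genes in the last 10 kb, 20.1% were tested in ArgonLT, against 87.9% beyond 100 kb. In ArgonST, against the same BY libraries, 13.6% of the 154 were tested. With the MGA2 fragment 29.6% of those tested in the last 10 kb were called higher and 11.7% beyond 100 kb, and with the SPT23 fragment 24.1% and 6.33%.

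Other genes of the same pathways were counted from 7 lists. Over all tested genes, 24.1% were called higher and 18.4% lower in ArgonLT, 16.7% and 14.5% in OLE1met250, 12.2% and 8.58% with MGA2, 6.86% and 5.49% with SPT23, and 4.86% and 2.41% in ArgonST, and each count below stands beside these shares. The anaerobic cell wall mannoproteins outside the families, 6 genes of the DAN and TIR type, are the relatives with which the PAU genes are usually grouped. In ArgonLT 5 of 6 rose, with a median of 6.70, led by TIR4 at 7.37, TIR1 at 6.85 and TIR2 at 6.54. In OLE1met250 6 of 6 rose, among them TIR4 at 3.62, DAN1 at 3.27 and DAN4 at 1.98, and in ArgonST 4 of 5 rose, TIR1 by 4.06, TIR2 by 1.35 and TIR3 by 1.16. With the SPT23 fragment 2 of 5 rose (TIR1, and DAN4 by 1.03), and with the MGA2 fragment 2 of 5 (DAN4 by 2.19, TIR2 by 1.88), per the authors' deposited table.

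Of 8 regulators of anaerobic genes in the authors' deposited table, 5 rose and 1 fell in ArgonLT. UPC2, the activator of sterol uptake genes, rose by 3.05, ROX1, a repressor of hypoxic genes, by 2.24 and SUT1 by 1.97. In OLE1met250 3 of 8 rose, UPC2 by 1.73, HAP1 by 1.54 and TUP1 by 0.59, and in ArgonST 4 of 8 rose, UPC2 by 0.70. With MGA2 2 rose and 1 fell (UPC2 0.91, SUT1 0.86, TUP1 -0.81), and with SPT23 1 fell, ECM22 at -0.68.

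Of 15 Yap1-type oxidative stress genes, 6 rose and 2 fell in ArgonLT, beside 42.5% of all tested genes called, with OYE3 at 3.00, GTT2 at 2.48 and GSH1 at 1.68. In OLE1met250 5 rose and 2 fell (TRX2 1.95, ATR1 -2.34), with MGA2 3 rose and 2 fell of 14 (GTT2 2.45, GPX2 -2.24), with SPT23 1 rose and 2 fell of 14 (ATR1 -1.42), and in ArgonST 1 rose and 4 fell of 13 (GPX2 -3.40).

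Genes of silencing and telomere upkeep were called in both directions. Of 12 silencing and telomere-binding genes, SIR1 fell by 1.74 in OLE1met250, and in ArgonLT 2 rose (SIR1 1.38, SAS2 0.84) and 2 fell, among them DOT1 at -1.43. With MGA2 SIR1 rose by 1.40 and RIF1 fell by 0.81, with SPT23 DOT1 fell by 1.32, and in ArgonST DOT1 fell by 0.94 and SAS2 rose by 0.86. Of 8 telomerase and capping genes, 1 rose and 2 fell in OLE1met250 (EST3 -1.79), 2 rose and 1 fell in ArgonLT (EST2 1.09, PIF1 -1.05), TEL1 fell by 0.84 with MGA2, CDC13 rose by 0.81 in ArgonST and none of 7 was called with SPT23.

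The sorting pathway and the relatives of the COS proteins were counted in the same way. Of 16 ESCRT and vacuolar sorting genes in the authors' deposited table, 2 rose and 0 fell in ArgonLT (STP22 0.99, SNF7 0.55), 2 rose and 1 fell in OLE1met250 (VPS36 1.00, VPS20 -0.79), VPS28 rose by 1.45 in ArgonST, BRO1 fell by 0.74 with SPT23, and none was called with MGA2. Of 10 genes of the DUP240 family, whose proteins share a domain with COS, 3 rose in ArgonLT (YCR007C 1.72, PRM8 1.08, UIP3 0.61), 2 with MGA2 (YHL044W 1.37, PRM8 1.12), 1 rose and 1 fell in OLE1met250 (YCR007C 0.94, YAR028W -0.79), and none was called with SPT23 or in ArgonST.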

How the data were processed

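Poly-T selected RNA of 27 libraries in 9 groups was sequenced as paired libraries, per the labels. Trimmomatic 0.33, TopHat2 2.0.14, Cuffdiff 2.2.1 and build R64 are named in the submitters' processing notes. Not given in the sources used here are their settings, the annotation, the use of strand and the handling of reads with several matches. Per the file headers, the authors' deposited table holds log2 differential expression and q-values (adjusted p-values) for 5 comparisons of 6709 genes, after 4 emptied lines. It was used with 0 columns of per-sample values left aside, so the depth is unknown, no test was run here and no SD stands beside a value. The authors' q-values rest on 3 libraries a group.

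The meaning of 10, -10 and 0 was read from the values and checked on the BY group shared by both hypoxia comparisons, where it held for every gene; a q of exactly 1 was taken as not tested, though a tested gene can also reach it. Positions are those of RefSeq R64, 1-based. Those of AAD6 and AAD16, and the distances of genes outside the families, are from the authors' deposited table. In RefSeq 6022 of the 6709 ids and 50 of 51 members were found. The 2 sources gave the same position for 5370 of the 6022 ids and 45 of the 50 members. Unique windows of 50 bases were counted on both strands of that genome. Identity is the percent of the shorter sequence in an alignment (Biopython 1.88; Python 3.11.15, pandas 2.3.3). Window counting and value classes were tested on simulated data. Named genes are the members called at least once, those never tested, and up to 3 called genes per list and comparison with the largest finite log2; the other members tested are named as well. The members, the 7 gene lists and the motifs were chosen with earlier results of these data known. Alternatives were a q under 0.01, a change of at least 2-fold, finite values only, members without near copies, all finite values and the median of all tested genes subtracted.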

Additional observations from a re-analysis of the deposited data

How the results depend on the processing

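No median changed its sign, and the counts of called members pool both directions, so they could not turn. With a q under 0.01, COS had 0 called in ArgonST and AAD had 3 in OLE1met250, 1 with SPT23 and 3 in ArgonLT. At 2-fold or more, COS had 3 called in OLE1met250, 1 with SPT23, 2 with MGA2, 0 in ArgonST and 4 in ArgonLT, and AAD had 2 in OLE1met250. On finite values alone, PAU had 0 called with SPT23 and 2 in ArgonLT. Without members whose protein is at least 95% identical to another, all 24 PAU genes drop out, so PAU had 0 in OLE1met250, 0 with SPT23 and 0 in ArgonLT by construction. Chosen after seeing the data, a minimum of 50% unique windows left 5 PAU calls in ArgonLT, and 3, 1, 2 and 4 COS calls in OLE1met250, with SPT23, with MGA2 and in ArgonLT; leaving out COS111, also chosen afterwards, moved no count past 1.5 times. Of 15 family medians, 6 moved when untested finite values were added and 3 when the median of all tested genes was subtracted. With the untested values, PAU in ArgonST went from 1.97 to 0.02 and AAD with MGA2 from 0.47 to 0.08. All of the 6 were lower except COS in ArgonLT, which went from 1.06 to 1.19. No paired analysis was possible because the table has no value per library, and for the same reason no replicate could be left out. Depth could not be judged.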
